A study of Mus musculus with 13 samples.

Results

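Aquaporins are membrane channels for water, and some of them also pass glycerol. In the salivary gland, Aqp5 lies in the apical membrane of acinar cells, where water follows secreted chloride into the lumen. Aqp1 is the water channel of vascular endothelium and of red cells. Elsewhere in the body Aqp3 is found in basolateral membranes, Aqp4 in glia and skeletal muscle, Aqp8 in digestive epithelia, Aqp9 in liver and leukocytes, and Aqp11 inside cells. The 7 aquaporin genes described here are the rows named Aqp1, Aqp3, Aqp4, Aqp5, Aqp8, Aqp9 and Aqp11, and all 7 were present among the 23364 genes of every sample.

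RNA was sequenced from whole dissected submandibular glands (SMG) of C57BL/6 mice with no transgene or treatment named, in 13 samples at 6 time points. The embryonic samples were 3 at E14.5, 2 at E16.5 and 2 at E18.5, the neonatal samples were 2 at P5, and the adult samples were 2 at 4wk and 2 at 12wk. Each E14.5 sample pooled the glands of 3 animals, and each E16.5 or E18.5 sample those of 2 animals. Sex was not determined before 4wk, and the 4wk and 12wk glands were from males. These are bulk samples of whole glands, so fewer cells of a type and less RNA per cell cannot be told apart. The labels do not say which samples share a litter or a dissection, so that p-values measure only the spread between these samples.

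Values are FPKM, a gene's reads divided by its length and by all reads on genes, and such levels can be compared between genes. The steps between low FPKM gave back the reads themselves and the total that each sample was divided by, read here as its reads on genes, which was between 5817293 and 48314162, lowest in the 4wk pair. Of 7 acinar marker genes, 5 rose between embryo and adult by the test described below (7 after rescaling), where 5.58% of all tested genes rose (13.8% after rescaling). From E14.5 to E16.5 5 of the 7 rose and Prol1 fell, where 4.17% of all tested genes rose and 0.983% fell. From 4wk to 12wk none was called, where 5.15% of all tested genes were called, and the list median was -0.52 on the log2 scale. E14.5 replicate 1 stood apart, with summed acinar markers of 52.9 FPKM against 341 and 376 in the other E14.5 samples, and with 2991 FPKM of the embryonic globin Hbb-y against 334 and 670. In the adult samples the 10 most abundant genes took between 48.1% and 61.1% of all FPKM, against between 5.93% and 16.501% in the embryonic samples. With FPKM read as shares of 1 total per sample, the median tested gene was lower by 0.75 on the log2 scale in adult than in embryonic samples as deposited, and by 0.05 after rescaling by median-of-ratios factors. Between 4wk and P5 this median was -0.53 as deposited and -0.05 rescaled, and between other neighbouring time points it was -0.14 as deposited or nearer to 0. Both scales are therefore given for each aquaporin call of the main fit, while several calls of other genes are given as deposited only.

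The promoters of Aqp5 and Aqp1 are shown because these 2 genes carried every call among the 7 in the main fit as deposited. Each is the stretch from 250 bases before to 50 bases after the start of the gene, on the plus strand of RefSeq's GRCm38.p6, at chr15:99590778-99591077 for Aqp5 and chr6:55336049-55336348 for Aqp1. Capitals mark the GC box GGGCGG and the E-box CACGTG, read on both strands.
Aqp5: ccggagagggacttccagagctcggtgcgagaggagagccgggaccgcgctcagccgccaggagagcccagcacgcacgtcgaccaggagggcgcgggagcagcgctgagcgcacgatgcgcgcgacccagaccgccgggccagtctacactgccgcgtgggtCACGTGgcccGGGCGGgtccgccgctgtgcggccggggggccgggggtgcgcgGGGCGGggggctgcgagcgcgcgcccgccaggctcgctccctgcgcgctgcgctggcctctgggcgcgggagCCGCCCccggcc
Aqp1: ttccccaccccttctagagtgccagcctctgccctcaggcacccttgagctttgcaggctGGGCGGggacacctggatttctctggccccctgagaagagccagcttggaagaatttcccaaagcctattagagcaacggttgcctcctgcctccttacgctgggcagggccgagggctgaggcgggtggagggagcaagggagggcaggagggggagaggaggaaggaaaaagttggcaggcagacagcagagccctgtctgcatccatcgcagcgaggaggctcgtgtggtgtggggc
The Aqp5 window held 3 GC boxes, beginning at positions -77, -34 and 38 from the start, and 1 E-box beginning at -87. The Aqp1 window held 1 GC box, beginning at -190. GGGCGG occurs in 35.7% of the 32851 promoters of the same length, and CACGTG in 7.15% of them. Neither window held TATAAA, which 13.6% of promoters hold, or CATATG, an E-box form bound by the acinar regulator Bhlha15, which 3.91% hold, and the motifs do not overlap one another. These matches describe letters only.

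Aqp5 occupies chr15:99421280-99425260 on the plus strand of mm9, with 5 merged exons. At E14.5 it was at 0.568, 9.13 and 5.98 FPKM in replicates 1, 2 and 3, which rested on 17, 359 and 248 reads. The E16.5 pair held 94.4 and 127 FPKM of Aqp5, and the E18.5 pair 163 and 170.3 FPKM. The gene was thus lowest in 1 E14.5 sample, low in the other two, and high in all later embryonic samples. Later samples had 184 and 177 FPKM (P5), 262 and 215 FPKM (4wk), and 141 and 137 FPKM (12wk). By mean level the order was 4wk (239 ± 33.8, SD, n = 2), P5 (180.2 ± 4.84, n = 2), E18.5 (167 ± 5.16, n = 2), 12wk (139 ± 3.12, n = 2), E16.5 (111 ± 22.9, n = 2) and E14.5 (5.23 ± 4.33, n = 3). The samples of any time point did not overlap those of its neighbour in this order, although each group from E16.5 on holds 2 samples only.

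Tests were made with limma on log2(FPKM + 1) over the 14650 genes that reached 1 FPKM in at least 1 sample, and calls needed a log2 fold change beyond 1 or -1 together with a Benjamini-Hochberg adjusted p below 0.1. Fold changes on this scale understate those of low genes. Of the 7 aquaporins, 3 passed the filter, Aqp1, Aqp5 and Aqp11. From E14.5 to E16.5, 1 of these 3 was called, Aqp5, where 5.15% of all tested genes were called. Aqp5 rose by a log2 fold change of 4.52 (SE 0.57, adjusted p = 0.000431 by limma), and by 4.40 (SE 0.53, adjusted p = 0.000507) after rescaling. Without E14.5 replicate 1, in which acinar markers were also lowest, the rise remained called, and over the 13 single samples left out in turn its log2 fold change was between 3.71 and 5.06.

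After E16.5, no step between neighbouring time points was called for Aqp5. From E16.5 to E18.5, where 2.94% of tested genes were called, none of the 3 aquaporins was, and none had an unadjusted p below 0.05 in limma (0 of 3, on either scale). The log2 fold change of Aqp5 was 0.60 (SE 0.62, adjusted p = 0.593) from E16.5 to E18.5 and 0.11 (SE 0.62, adjusted p = 0.935) from E18.5 to P5. From P5 to 4wk it was 0.40 (SE 0.62, adjusted p = 0.606) as deposited and 1.07 (SE 0.58, adjusted p = 0.166) rescaled, so the scale moved its size but not the call. From 4wk to 12wk it was -0.77 (SE 0.62, adjusted p = 0.483), and -0.75 rescaled. These standard errors share the spread of all time points, and the E14.5 samples ran from 0.568 to 9.13 FPKM. Over single samples left out, the step from 4wk to 12wk was between -0.91 and -0.62, with a lowest limma adjusted p of 0.0269. That from E16.5 to E18.5 was between 0.39 and 0.81, with a lowest limma adjusted p of 0.071. Both stayed under the size threshold, so a smaller change after E16.5 is not excluded.

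**Figure D1:**
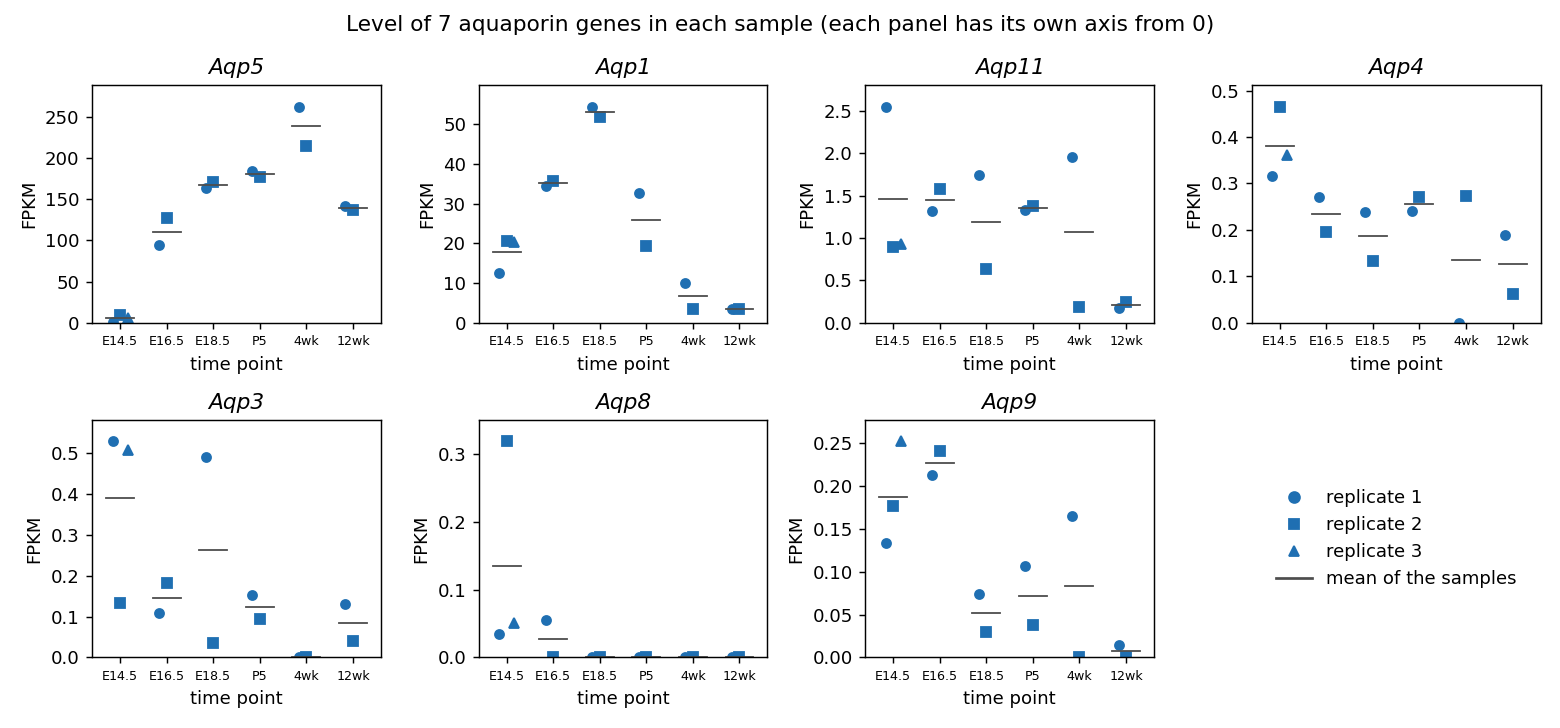
Level of each of the 7 aquaporin genes in FPKM (vertical axis, from 0 and separate for each panel) by time point (horizontal axis); points are single samples, with the marker shape giving the replicate number, and bars are means. Aqp5 goes from at most 9.13 FPKM at E14.5 to at least 94.4 FPKM in every later sample, Aqp1 peaks at E18.5, and Aqp3, Aqp4, Aqp8 and Aqp9 lie below 0.53 FPKM or at that value throughout.

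Aqp1 lies at chr6:55286426-55298549 on the plus strand of mm9, in 4 exons. Its level was 12.5, 20.7 and 20.3 FPKM in the E14.5 samples, then 34.5 and 35.6 FPKM in the E16.5 pair and 54.5 and 51.7 FPKM in the E18.5 pair. After birth the P5 pair held 32.7 and 19.2 FPKM, the 4wk pair 10.1 and 3.41 FPKM, and the 12wk pair 3.57 and 3.47 FPKM. Every adult sample was below every embryonic and neonatal sample, and E18.5 was above all other time points. The E14.5 and P5 samples overlapped in level, and both 12wk values lay within the range of the 4wk pair.

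The climb of Aqp1 in the embryo fell short of a call. From E14.5 to E16.5 its log2 fold change was 0.97 (SE 0.34, limma adjusted p = 0.0731), under the size threshold, and without E14.5 replicate 2 it was 1.09 (adjusted p = 0.0867) and called. From E16.5 to E18.5 the log2 fold change was 0.58 (SE 0.37, adjusted p = 0.360). From E18.5 to P5, where 5.04% of all tested genes were called, Aqp1 was the 1 aquaporin called, with a fall of 1.05 on the log2 scale (SE 0.37, adjusted p = 0.0758). This call was lost after rescaling (-0.89, adjusted p = 0.127). It was also lost without E18.5 replicate 1 (adjusted p = 0.238), without E18.5 replicate 2 (adjusted p = 0.202), without P5 replicate 2 (-0.68, adjusted p = 0.395), and without either 12wk sample (adjusted p = 0.105 and 0.104).

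From P5 to 4wk, where 24.3% of tested genes were called and 3235 of 3556 calls were decreases, Aqp1 was again the 1 aquaporin called. It fell by 1.90 on the log2 scale as deposited (SE 0.37, limma adjusted p = 0.00145) and by 1.31 rescaled (SE 0.36, adjusted p = 0.0142). Over the single samples left out in turn the log2 fold change was between -2.56 and -1.23, and it was called each time. From 4wk to 12wk, where 5.15% of tested genes were called, none of the 3 aquaporins was called, and none had an unadjusted p below 0.05 (0 of 3). For Aqp1 this last step turned on the 4wk pair, with a log2 fold change of -0.63 over all samples, 0.03 without 4wk replicate 1, and -1.30 (adjusted p = 0.0162, called) without 4wk replicate 2.

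Between the 4 adult and 7 embryonic samples, 2 of the 3 aquaporins tested were called, in opposite directions, where 43.6% of all tested genes were called. Aqp1 fell by 2.43 on the log2 scale (SE 0.38, limma adjusted p = 5.8e-05), and by 1.60 rescaled (SE 0.40, adjusted p = 0.0034), from 32.8 ± 16.1 FPKM (SD, n = 7) to 5.14 ± 3.30 FPKM (n = 4). It was called in this comparison under all 24 alternatives run. Aqp5 rose by 2.49 (SE 1.14, adjusted p = 0.0601), and by 3.38 rescaled (SE 1.13, adjusted p = 0.0193), from 81.4 ± 75.5 FPKM (n = 7) to 189 ± 60.6 FPKM (n = 4). The adult and embryonic samples of Aqp5 overlapped, since both 12wk samples were below both E18.5 samples, and the embryonic group spans the rise after E14.5. The Aqp5 call was lost without E14.5 replicate 2 (2.21, adjusted p = 0.101), E14.5 replicate 3 (2.12, adjusted p = 0.105), 4wk replicate 1 (2.32, adjusted p = 0.125) or 4wk replicate 2 (2.41, adjusted p = 0.113). With E14.5 replicate 1 and 4wk replicate 1 both left out, which was tried after seeing the data, it was 1.59 (adjusted p = 0.161).

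**Figure D2:**
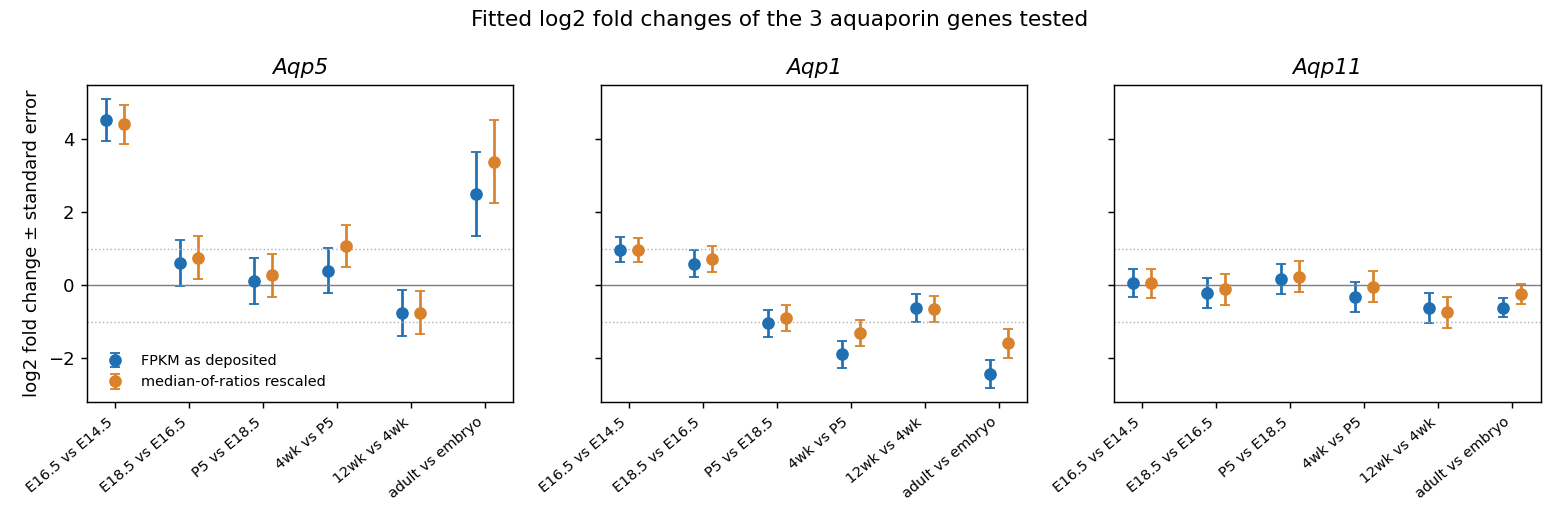
Fitted log2 fold change (vertical axis) with its standard error as bars for Aqp5, Aqp1 and Aqp11 in 5 comparisons of neighbouring time points and in adult against embryo (horizontal axis), from FPKM as deposited (blue) and after median-of-ratios rescaling (orange); dotted lines mark the size threshold. The step of Aqp5 from E14.5 to E16.5 is 4.52 as deposited and 4.40 rescaled, while that of Aqp1 from P5 to 4wk is -1.90 as deposited and -1.31 rescaled.

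A ratio of 2 genes within a sample does not depend on how the sample is scaled. The log2 ratio of Aqp5 to Aqp1 in the E14.5 samples was -4.46, -1.18 and -1.76, while the E16.5 pair gave 1.45 and 1.83 and the E18.5 pair 1.58 and 1.72. The P5 pair gave 2.49 and 3.20, the 4wk pair 4.70 and 5.97, and the 12wk pair 5.31 and 5.30. Aqp1 was thus the higher of the pair at E14.5 and Aqp5 the higher from E16.5 on, with all adult samples above all others. The mean was -0.12 ± 2.42 (SD, n = 7) in the embryo and 5.32 ± 0.52 (n = 4) in the adult, a difference of 5.44 (two-sided exact permutation test over 330 labelings, p = 0.00303, which is the smallest this test can give, and 0.00909 adjusted over 3 ratios). The difference was between 4.71 and 5.76 over 15 alternatives, and its permutation p was below 0.05 in all 15. This test, used for all 3 ratios, shuffles single samples and takes no account of likeness between samples of the same age. The limma comparison of adult with embryo likewise takes samples of different ages as replicates of a stage. Aqp5 made up 3.41%, 28.7% and 21.1% of the summed FPKM of the 7 genes in the E14.5 samples. Its share was 72.1% and 77.0% in the E16.5 pair, 74.1% and 76.4% in the E18.5 pair, 84.2% and 89.4% in the P5 pair, and from 95.6% to 98.2% over the adult samples. Its rank among all genes by FPKM went from 13876, 7216 and 8806 at E14.5 to between 178 and 317 in the adult.

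**Figure D3:**
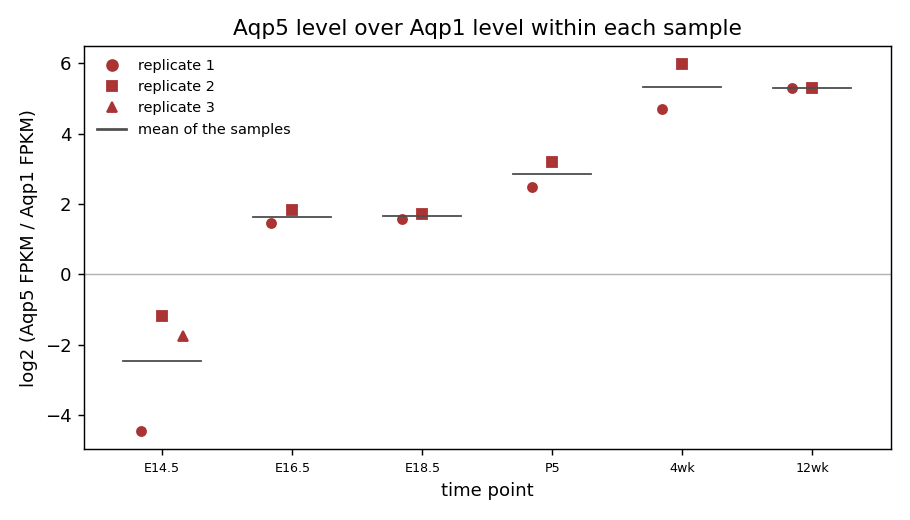
Log2 ratio of Aqp5 to Aqp1 FPKM within each sample (vertical axis) by time point (horizontal axis), with points for samples, shapes for replicate numbers and bars for means. The ratio lies below 0 in all 3 samples at E14.5, between 1.45 and 1.83 in the 4 samples of E16.5 and E18.5, and between 4.70 and 5.97 in the adult.

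Aqp1 was set beside 10 endothelial marker genes, among them Pecam1, an adhesion molecule, and Cdh5, the cadherin of endothelial junctions. Summed, these markers ranged from 168 to 216 FPKM over embryonic samples and from 46.0 to 69.8 FPKM over adult ones, with 189 and 142 FPKM in the P5 pair, with none of the 10 at 0 in any sample. Of the 10, none was called from E18.5 to P5, where 5.04% of all tested genes were called. From P5 to 4wk 7 of 10 fell as deposited, where 22.1% of all tested genes fell, and 2 after rescaling, where 8.75% did. Between embryo and adult 8 of 10 fell as deposited, where 38.0% of all tested genes fell, and 4 after rescaling, where 14.7% did. In the 4wk pair, replicate 1, which had the higher Aqp1, was the higher in 8 of the 10 markers, among them Cdh5 (8.75 against 5.20 FPKM), and the lower in Emcn (8.59 against 12.2 FPKM) and Plvap (9.38 against 13.3 FPKM). The part of endothelial content in the fall of Aqp1 was not tested, and fewer endothelial cells and less Aqp1 in each cannot be told apart.

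Relative to the mean log2 level of the 10 markers, Aqp1 was 0.854-fold, 1.25-fold and 1.18-fold in the E14.5 samples, 2.34-fold and 1.94-fold in the E16.5 pair, and 3.36-fold and 3.53-fold in the E18.5 pair. The P5 pair had 2.03-fold and 1.59-fold, the 4wk pair 1.67-fold and 0.755-fold, and the 12wk pair 0.911-fold and 0.973-fold. This ratio was thus highest at E18.5, with similar values at E14.5 and in 3 of the 4 adult samples. On the log2 scale it was 0.87 ± 0.79 (SD, n = 7) in the embryo and 0.04 ± 0.49 (n = 4) in the adult, a difference of -0.83 that did not pass the two-sided exact permutation test (p = 0.097, and 0.145 adjusted over 3 ratios). Without E14.5 replicate 1 the difference was -1.01 (exact permutation p = 0.0476). Red cells also carry Aqp1. The sample richest in Hbb-y, E14.5 replicate 1, had 12.5 FPKM of Aqp1, and the 12 erythroid markers, summed, were between 79.5 and 3374 FPKM in the embryonic samples and at most 4.65 FPKM in the adult ones. Of the 12, 6 were tested and all 6 fell between embryo and adult, where 38.0% of all tested genes fell as deposited and 14.7% after rescaling. The adult globins give no measure of red cells here, since Hba-a1, Hba-a2 and Hbb-b2 were listed at 0 in all 13 samples and Hbb-b1 was at most 0.441 FPKM. The part of red cells in Aqp1 was not tested.

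**Figure D4:**
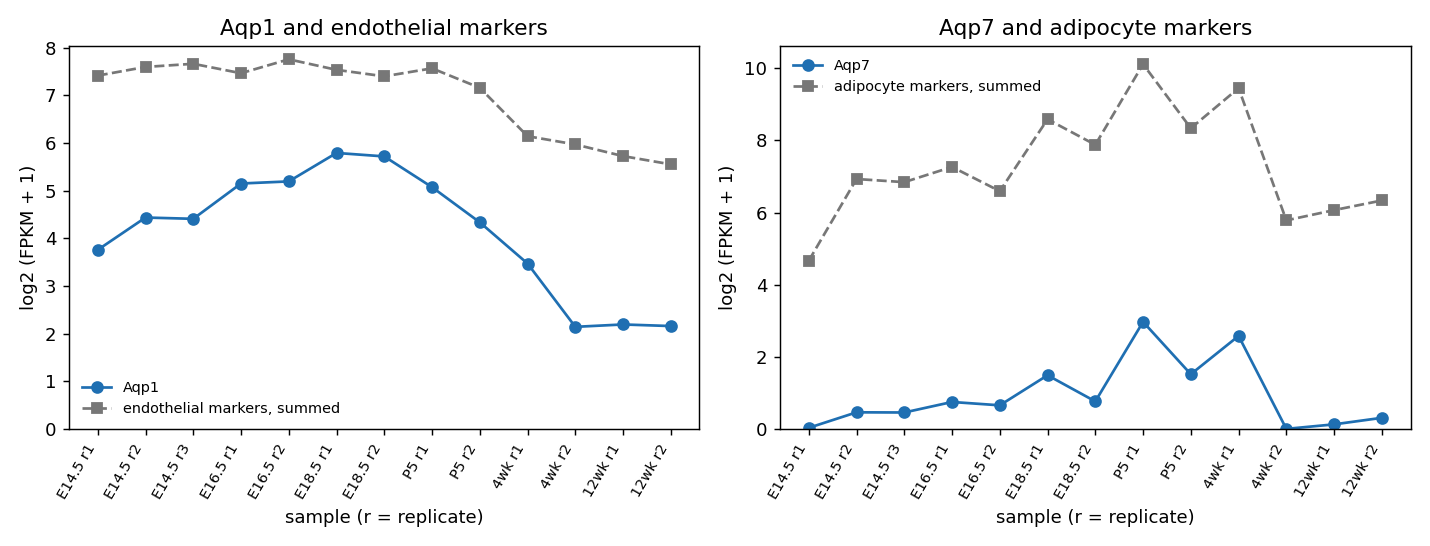
Log2(FPKM + 1) (vertical axis) in each of the 13 samples (horizontal axis) of Aqp1 and the summed 10 endothelial markers (left) and of Aqp7 and the summed 5 adipocyte markers (right). Endothelial markers stay between 142 and 216 FPKM through P5 while Aqp1 moves from 12.5 to 54.5 FPKM. Aqp7 is highest in P5 replicate 1 and 4wk replicate 1, where adipocyte markers are also highest. P5 replicate 2 and E18.5 replicate 1 are alike, with 1.86 and 1.80 FPKM of Aqp7 beside 323 and 384 FPKM of these markers.

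Aqp11, an intracellular aquaporin whose loss damages the kidney's proximal tubule, lies at chr7:104874889-104886757 on the minus strand of mm9. The E14.5 samples held 2.55, 0.895 and 0.934 FPKM, the E16.5 pair 1.31 and 1.58 FPKM, the E18.5 pair 1.74 and 0.629 FPKM, and the P5 pair 1.33 and 1.38 FPKM. The 4wk pair held 1.95 and 0.190 FPKM, on 15 and 2 reads, and the 12wk pair 0.173 and 0.239 FPKM, on 5 and 9 reads. It was low in 3 of the 4 adult samples, and 4wk replicate 1 lay among the embryonic values. Its order by mean, E14.5, E16.5, P5, E18.5, 4wk and 12wk, separates neighbours nowhere beyond their spread. Aqp11 was called in none of the 6 comparisons by limma in the main fit, and between adult and embryo its log2 fold change was -0.62 (SE 0.27, adjusted p = 0.0479), which is under the size threshold, and -0.25 (adjusted p = 0.451) rescaled. With a pseudocount of 0.1 in place of 1 it was -1.49 (adjusted p = 0.0188) and was called, as was its step from 4wk to 12wk without 4wk replicate 2 (-1.29, adjusted p = 0.0366).

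The 4 other members never reached 1 FPKM and were not tested in the main fit. Aqp4, the water channel of astrocyte end feet, lies at chr18:15547903-15562193 on the minus strand of mm9. The E14.5 samples held 0.316, 0.466 and 0.361 FPKM, and the E16.5, E18.5 and P5 samples from 0.133 to 0.271 FPKM, all on between 21 and 60 reads. In the adult the 4wk pair held 0 and 0.272 FPKM and the 12wk pair 0.189 and 0.0623 FPKM. Aqp4 was the only one of the 4 with at least 21 reads in each embryonic and P5 sample, and 0 reads in 4wk replicate 1 allow up to 0.101 FPKM (3 reads). Skeletal muscle, which carries Aqp4, was marked in the E14.5 and E16.5 samples by between 194 and 1264 FPKM of 11 summed markers and by at most 42.9 FPKM in every later sample. The astrocyte gene Gfap was at most 0.463 FPKM. The 3 E14.5 samples, highest in Aqp4, had muscle sums of 535, 261 and 194 FPKM, while the highest sum, 1264 FPKM, stood beside 0.195 FPKM of Aqp4 in E16.5 replicate 2. The part of muscle in Aqp4 was not tested.

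Aqp3, a channel for water and glycerol in basal layers of stratified epithelium, lies at chr4:41039755-41045216 on the minus strand of mm9. The E14.5 samples held 0.530, 0.134 and 0.509 FPKM, the E16.5 pair 0.110 and 0.182 FPKM, the E18.5 pair 0.491 and 0.0350 FPKM, and the P5 pair 0.153 and 0.0942 FPKM. Neither 4wk sample had a read, which allows up to 0.293 and 0.214 FPKM, and the 12wk pair held 0.130 and 0.0399 FPKM on 5 and 2 reads. The E14.5 and E18.5 samples each spread over most of the range of the gene, and a change with age was not detectable at this depth. Of 4 basal markers, 3 fell between embryo and adult as deposited, Krt15 (-4.23), Trp63 (-1.59) and Krt14 (-1.02), where 38.0% of all tested genes fell. After rescaling Krt15 alone fell and Krt5 rose (1.30), where 14.7% of all tested genes fell and 13.8% rose. Their sum was between 94.6 and 150.2 FPKM in the embryonic samples and between 41.0 and 77.2 FPKM in the adult ones, and none was at 0 in any sample. The part of basal cells in Aqp3 was not tested.

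Aqp9, a glycerol and urea channel of hepatocytes and neutrophils, lies at chr9:70958466-71016489 on the minus strand of mm9. The 5 samples of E14.5 and E16.5 held from 0.133 to 0.252 FPKM, on between 8 and 28 reads, and those of E18.5 and P5 at most 0.106 FPKM. In the adult it had 3 reads and 0 reads at 4wk and 1 read and 0 reads at 12wk. Of 9 macrophage and neutrophil markers 8 were tested, and between embryo and adult 2 fell and 1 rose. Of all tested genes 38.0% fell and 5.58% rose. Those that fell were the neutrophil genes S100a8, between 7.80 and 40.2 FPKM through P5 and at most 0.269 FPKM in the adult, and S100a9 (-4.55 on the log2 scale). The lysozyme gene Lyz2 rose (1.27), and after rescaling the macrophage genes Csf1r, Emr1 and Cd68 rose as well, where 13.8% of all tested genes rose. The summed markers were between 76.1 and 183 FPKM in the embryonic samples and between 113 and 164 FPKM in the adult ones. The part of leukocytes in Aqp9 was not tested.

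Aqp8, found in digestive epithelia, lies at chr7:130605808-130611517 on the plus strand of mm9. It had 1, 12 and 2 reads at E14.5 (0.0349, 0.318 and 0.0503 FPKM) and 3 reads in E16.5 replicate 1 (0.0557 FPKM). It was at 0 in the 9 other samples, and no read there allows a level of at most 0.0418 FPKM in the deepest and 0.347 FPKM in the shallowest of them. Only E14.5 replicate 2 was above the value of 3 reads. With the filter on low values removed, none of these 4 genes was called in any of the 6 comparisons by limma. No call was possible, since levels of at most 0.530 FPKM cannot differ by 1 on the scale of log2(FPKM + 1). In that limma fit the log2 fold change furthest from 0 was -0.29 for Aqp3 between adult and embryo (adjusted p = 0.0434).

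Of the 5 other aquaporin genes in the files, Aqp12, a pancreatic gene, was at 0 in all 13 samples and Aqp6, of kidney, was above 0 in 1 sample, at 0.026 FPKM. Mip, the aquaporin of the lens, was at most 0.339 FPKM. Aqp2, the channel of the renal collecting duct that vasopressin controls, stands 6303 bases before Aqp5 on the same strand of chromosome 15 in mm9, and Aqp6 stands 6570 bases after Aqp5. Aqp2 had no read in the E14.5 samples, 62 and 39 reads in the P5 pair (0.906 and 0.653 FPKM), 0 and 1 reads in the 4wk pair, and 5 and 13 reads in the 12wk pair (0.162 and 0.323 FPKM). It was thus highest at P5, where Aqp5 beside it was at 184 and 177 FPKM.

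Aqp7, the glycerol channel of adipocytes, was named after its values were seen, and was the only other family gene to reach 1 FPKM. The E14.5 samples held 0.0205, 0.375 and 0.371 FPKM, the E16.5 pair 0.677 and 0.573 FPKM, and the E18.5 pair 1.80 and 0.696 FPKM. The P5 pair held 6.83 and 1.86 FPKM, the 4wk pair 4.97 and 0 FPKM on 73 and 0 reads, and the 12wk pair 0.0908 and 0.237 FPKM. The replicates of P5 and of 4wk differed widely, with replicate 1 the higher in each. The 5 adipocyte markers, summed, gave 1109.6 and 323 FPKM in the P5 pair, 699 and 54.1 FPKM in the 4wk pair, and 66.1 and 79.8 FPKM in the 12wk pair. Adipoq, which encodes the fat hormone adiponectin, followed the same split, with 95.1 and 27.6 FPKM in the P5 pair and 47.7 and 1.53 FPKM in the 4wk pair, and was at 0 in the 3 E14.5 samples. Of the 5 markers, 2 rose from E18.5 to P5 on both scales, where 2.07% of all tested genes rose as deposited and 2.38% rescaled. From P5 to 4wk 4 fell as deposited, where 22.1% of all tested genes fell, and 1 rescaled, where 8.75% did. The part of fat in Aqp7 was not tested. Aqp7 was called in none of the 6 comparisons by limma in the main fit (adjusted p between 0.239 and 0.852), where its step from E18.5 to P5 was 1.12. Its later steps turned on the 4wk pair, and that from 4wk to 12wk was -2.36 without 4wk replicate 2. Without 4wk replicate 1 its step from P5 to 4wk was -2.24 (adjusted p = 0.0039) and was called, and without 4wk replicate 2 it was 0.34 (adjusted p = 0.599).

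Acinar fluid is driven by chloride that Slc12a2, the basolateral Na-K-2Cl cotransporter, brings into the cell and that Ano1, the apical calcium-gated chloride channel, lets out. A list of 17 such genes, with pumps, potassium channels, exchangers, muscarinic receptors and calcium release genes, was counted beside Aqp5, and all 17 were tested. From E14.5 to E16.5, the step at which Aqp5 rose, 5 of 17 rose and 0 fell, where 4.17% of all tested genes rose, with a list median of 0.58 against 0.00 over all tested genes on the log2 scale. They were Lrrc26, a subunit of the BK potassium channel (3.44, SE 0.34, limma adjusted p = 0.000112), the calcium-gated potassium channel Kcnn4 (2.02), the sodium pump subunit Atp1b1 (1.33), Ano1 (1.14) and Slc12a2 (1.03). Without E14.5 replicate 1, Atp1b1 was at 0.99 and Ano1 at 0.86, both under the size threshold. Slc12a2, nearest to the threshold at 1.03, was not refitted with samples left out in this step. It was at 16.4 FPKM in E14.5 replicate 1 against 19.6 and 21.8 FPKM in the other E14.5 samples. Leaving that sample out would thus lower its fold change, and its call is not known to hold.

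In the steps from E16.5 to E18.5, from E18.5 to P5 and from 4wk to 12wk none of the 17 was called as deposited, while 5, 2 and 4 had an unadjusted p below 0.05. Of all tested genes 2.94%, 5.04% and 5.15% were called in these steps. Their share at an unadjusted p below 0.05 was not counted, so the counts at that threshold have no background here. After rescaling 2 rose from E16.5 to E18.5 and 1 from E18.5 to P5, where 1.32% and 2.38% of all tested genes rose. From P5 to 4wk, Car2, a cytosolic carbonic anhydrase, rose by a log2 fold change of 1.50 (adjusted p = 0.000386) and the muscarinic receptor Chrm1 fell by 1.13 (adjusted p = 0.00337). In this step 2.19% of all tested genes rose and 22.1% fell. After rescaling 4 of the 17 rose and 0 fell, with Chrm1 at -0.76, where 6.4% of all tested genes rose and 8.75% fell. Between embryo and adult 6 of 17 rose and 0 fell, where 5.58% of all tested genes rose, with a median of 0.83 against -0.75 over all tested genes. Of the 17, 4 were lower at an unadjusted limma p below 0.05, a threshold at which all tested genes were not counted. The genes furthest up were Lrrc26 (2.60, SE 0.92, limma adjusted p = 0.0195), Atp1b1 (2.19), Slc12a2 (1.94) and Kcnn4 (1.68). After rescaling 11 rose and 0 fell, where 13.8% of all tested genes rose, with a median of 1.72 against -0.05.

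**Figure D5:**
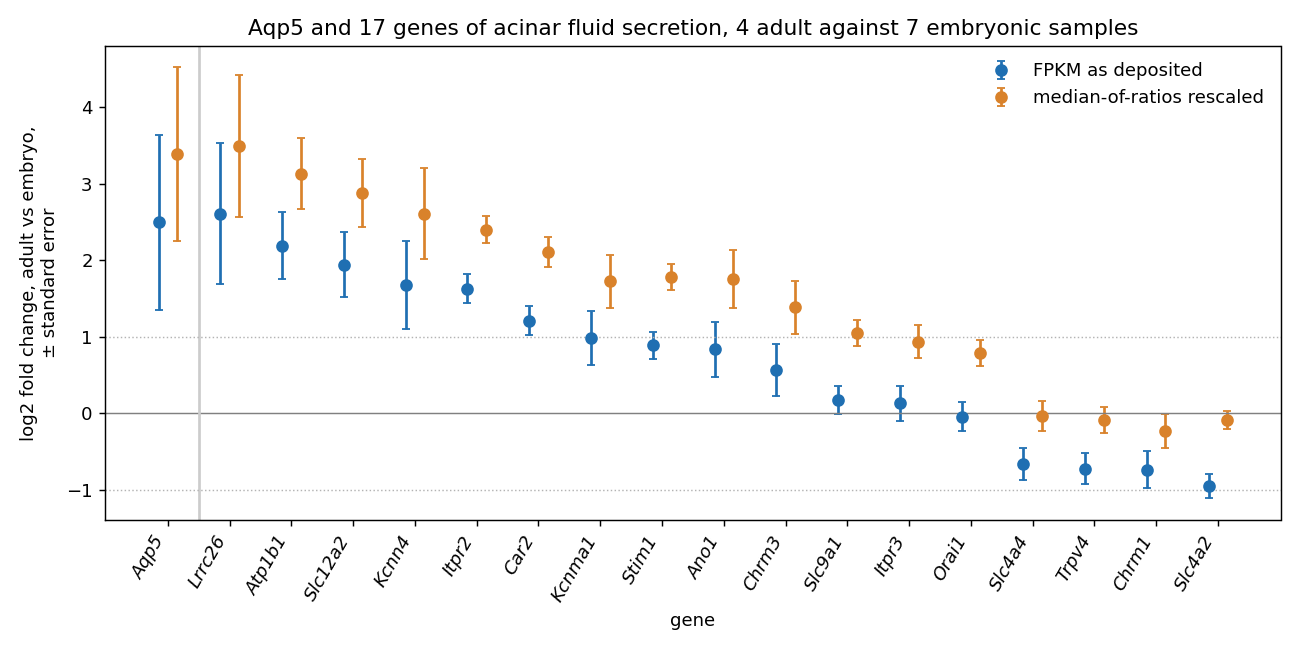
Log2 fold change (vertical axis) between 4 adult and 7 embryonic samples with its standard error as bars, for Aqp5 (left of the line) and for 17 genes of acinar fluid secretion (horizontal axis), as deposited (blue) and rescaled (orange). Dotted lines mark the size threshold, and Lrrc26, at 2.60 as deposited, is the only list gene above Aqp5, at 2.49.

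The ratio of Aqp5 to Slc12a2 compares the water channel with the ion entry step inside each sample. Aqp5 was 0.0347-fold, 0.466-fold and 0.274-fold the level of Slc12a2 in the E14.5 samples, 2.97-fold and 2.49-fold in the E16.5 pair, and 1.81-fold and 2.39-fold in the E18.5 pair. The P5 pair had 1.88-fold and 1.60-fold, the 4wk pair 1.47-fold and 1.17-fold, and the 12wk pair 1.55-fold and 1.07-fold. Aqp5 was thus the lower of the pair only at E14.5, and all samples from P5 on were below 3 of the 4 samples of E16.5 and E18.5. On the log2 scale the ratio was -0.40 ± 2.37 (SD, n = 7) in the embryo and 0.37 ± 0.26 (n = 4) in the adult, and the difference of 0.78 did not pass the two-sided exact permutation test (p = 0.588, also 0.588 adjusted over 3 ratios).

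The 3 tested genes most like each of the 3 aquaporins were found by Pearson's r of log2(FPKM + 1) over the 13 samples, which share libraries and totals, so that r is a description. For Aqp5 they were Prr15l (r = 0.991, from 1.33 to 31.4 FPKM), Mlph, a myosin adaptor of secretory granules (r = 0.986, from 1.39 to 55.1 FPKM), and Ppp1r1b, an inhibitor of a protein phosphatase (r = 0.986, from 3.67 to 152 FPKM). For Aqp1 they were Lyve1, the hyaluronan receptor of lymphatic endothelium (r = 0.976, from 1.46 to 24.7 FPKM), and the mitochondrial enzyme genes Acat1 (r = 0.975) and Nadkd1 (r = 0.974). None of the 10 endothelial markers was among these 3. For Aqp11 they were Tti2 (r = 0.925), 3830408C21Rik (r = 0.912) and the telomere gene Pot1b (r = 0.906), all at or under 5.96 FPKM.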

How the data were processed

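RNA-seq reads of 50 bp, single-end, were mapped to mm9 by the authors with TopHat2 2.0.13 and Bowtie2 2.2.6 and counted on genes with featureCounts, leaving out reads with several places or genes. FPKM per gene and sample were deposited by the authors, who state that samples were first normalised by the median method of DESeq2 1.10.1. The deposited values go against this step, since factors that equalise the median gene still ranged from 0.617 to 1.38. The divisor of each sample was looked for among whole numbers only, so its being whole is no further evidence. Values were read here as divided by the reads each sample had on genes, which is an inference: reads summed over 21207 genes of known length came to between 108% and 148% of that divisor. Reads were recovered as whole multiples within 0.01 of a read, and floors of 3 reads cover counting error only.

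Genes reaching 1 FPKM anywhere were fitted here as log2(FPKM + 1) with limma 3.58.1 under R 4.3.3 (variance trend), with the 6 time points or the 3 stages (embryo, neonatal, adult) as groups. No count model was fitted, and the fit was tested on simulated data. Ratios were compared by exact permutation in Python 3.11.15. The text names the 7 members, from the lists those past the thresholds (at most 4 per direction by fold), genes at 0 in all samples, and the 3 genes most like each tested member, and exceptions are stated. Alternatives changed the pseudocount, filter, scaling, threshold, trend or block, or left out samples. The members and lists were chosen with earlier results of these data known, and the motifs after the sequences were seen. Promoter sequences matched 6 of the 7 members. A gene of the fluid secretion list is not reported here and was left out of its counts.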

Additional observations from a re-analysis of the deposited data

Results flagged for a closer look

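Among 25 sets of 7 embryonic or 4 adult samples examined with Dixon's criterion, 7 held a sample far from the others. The criterion marks about 1 in 20 sets by chance where all samples come from 1 normal population. These sets pool 3 embryonic or 2 adult ages, and several of the genes rest on few reads, so that rate is no measure for these 7. In the adult samples 4 of these were 4wk replicate 1. It held 10.1 FPKM of Aqp1 against at most 3.57 FPKM in the others, 1.95 FPKM of Aqp11 against at most 0.239, 0.166 FPKM of Aqp9 (3 reads) against at most 0.0147, and 4.97 FPKM of Aqp7 against at most 0.237. This sample had the fewest reads on genes, 5817293, the most summed adipocyte markers of the adult samples, 699 FPKM, and the most endothelial markers, 69.8 FPKM. Their part in these values was not tested. In the embryonic samples Aqp8 stood out in E14.5 replicate 2 at 0.318 FPKM (12 reads), Aqp7 in E18.5 replicate 1 at 1.80 FPKM, where adipocyte markers were the highest of the embryo at 384 FPKM, and Aqp2 in E16.5 replicate 2 at 0.284 FPKM (15 reads).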

How the results depend on the processing

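The alternatives were run on the 3 ratios, on the number of aquaporins and of all genes called in each comparison, and on fold changes of named genes. Of the fluid secretion list they covered at most 4 genes per direction in a comparison. Of the values for named genes, 731 kept direction and call, 24 lost the call, 13 gained it and 22 changed sign.

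With a pseudocount of 0.1 the calls over all genes were 1183 (E16.5 vs E14.5), 1163 (P5 vs E18.5), 5767 (4wk vs P5) and 1658 (12wk vs 4wk), and Aqp7 in adult vs embryo was -0.44. After rescaling they were 2213 (4wk vs P5) and 4167 (adult vs embryo, 2020 up and 2147 down against 818 up and 5567 down as deposited). A pseudocount of 0.1 with rescaling, added after seeing the data, called 2 aquaporins from E14.5 to E16.5 and 1862 genes from 4wk to 12wk. From E18.5 to P5 the number of aquaporins called was 0 with the other pseudocount, with no filter, with rescaling, with both changed, and at an adjusted p below 0.05. In adult vs embryo the number was 1 at an adjusted p below 0.05, and 1 with either pair of doubted samples left out.

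Leaving out E14.5 replicate 1 and 4wk replicate 1 together, added after seeing the data, gave -0.0234 for Aqp5 over Slc12a2 and -1.24 for Aqp1 over endothelial markers (exact permutation p = 0.0357). With that pair left out, and likewise without 4wk replicate 1 and P5 replicate 1 (also added later), 12wk vs 4wk was 0.0333 for Aqp1, 0.0191 for Aqp11 and 0.22 for Aqp7, and adult vs embryo was -0.62 and -0.51 for Aqp7.

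Over single samples left out, Aqp1 over endothelial markers was between -1.06 and -0.67. The number of aquaporins called was between 1 and 2 (E16.5 vs E14.5), 0 and 1 (P5 vs E18.5), 0 and 2 (12wk vs 4wk) and 1 and 2 (adult vs embryo), and 12wk vs 4wk had between 617 and 1472 genes called, the most without 4wk replicate 2. Fold changes on the log2 scale ranged for Aqp1 from -1.30 to 0.0333 (12wk vs 4wk), and for Aqp11 from -0.10 to 0.35 (E16.5 vs E14.5), -0.58 to 0.17 (E18.5 vs E16.5), -0.22 to 0.53 (P5 vs E18.5), -0.99 to 0.32 (4wk vs P5) and -1.29 to 0.0191 (12wk vs 4wk). Those of Aqp7 ranged from -2.24 to 0.34 (4wk vs P5), -2.36 to 0.22 (12wk vs 4wk) and -0.51 to 0.35 (adult vs embryo). Where 1 sample remained in a time point, it was taken to vary like the other groups.

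Samples with the same replicate number did not deviate together on average (mean r = -0.0158 over 30 pairs, from -0.352 to 0.273). The mean of 0.0118 over 40 pairs of different numbers is no separate check, since deviations within a group of 2 are exact opposites. A mean near 0 does not tell whether the numbers pair samples at some of the time points. With the replicate number as a block, 1 aquaporin was called in adult vs embryo, Aqp5 being at 2.12 with a limma adjusted p of 0.118, all genes called there were 6262, and Aqp11 from E14.5 to E16.5 was at -0.0856. Replicate 3 exists only at E14.5, so the block sets that sample apart. The fold changes of Aqp5 and Aqp11 given here equal those without E14.5 replicate 3. The cause of the other changes was not tested. Depth limits Aqp3, Aqp8, Aqp9 and Aqp11 most at 4wk, where 1 read on a gene of 1 kilobase was worth 0.172 and 0.126 FPKM.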

Other observations

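Among genes whose annotated length gives whole reads, 4wk replicate 1 held 60, 65, 57 and 62 genes with exactly 1, 2, 3 and 4 reads, while 4wk replicate 2 held 205, 138, 110 and 73. E18.5 replicate 2 likewise held 80 genes with 1 read and 87 with 2, against 226 and 172 in E18.5 replicate 1. In the 11 other samples genes with 1 read outnumbered those with 2. The cause was not tested, and the values of Aqp3, Aqp9 and Aqp11 in those 2 samples rest on at most 27 reads each.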
